A study of Saccharomyces cerevisiae with 24 samples.

Results

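The comparison described here set budding yeast without *SWR1*, which encodes the ATPase of the SWR1 chromatin remodelling complex, against wild type. It used 6 of the 24 Affymetrix Yeast Genome 2.0 arrays of the study, namely the 3 labelled *swr1Δ* and the 3 labelled wt, and it was read over the 5498 probe sets that could be paired with a single *S. cerevisiae* gene. The study grew 8 strains, wild type and 7 deletion mutants of the histone variant H2A.Z and of SWR1 subunits, and asked which transcripts change when the variant, the enzyme that deposits it, or both, are missing. Each strain was represented by 3 independent cultures, and every value below is a log2 intensity of 1 probe set on 1 array.

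Wild type was BY4741 (*MATa his3Δ1 leu2Δ0 ura3Δ0 met15Δ0*). The *swr1Δ* strain had the same background with the whole *SWR1* reading frame replaced by *kanMX4*, a drug resistance cassette, and came from the Euroscarf collection. The labels gave the 3 mutant cultures the strain names Y03693, Y03694 and Y03695, of which the study's strain list describes Y03693, so whether they were 1 strain cannot be told from the sources used here. Cells were grown at 30 °C in minimal medium to mid-log phase, without any added agent. The other strains drawn on were *htz1Δ* (no H2A.Z, and in addition *bar1Δ::hyg*), *swc2Δ*, *swc5Δ* and the double mutant *htz1Δswr1Δ*, all *MATa* and all with *kanMX4* at the deleted genes.

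H2A.Z, encoded by *HTZ1*, takes the place of the core histone H2A in the nucleosomes that flank many promoters. SWR1 is the complex that puts it there: the Swr1 ATPase drives the exchange and holds the subunits together, Swc2 binds the variant, and Swc5 is needed for the transfer. In yeast H2A.Z is best known for marking the first nucleosomes of genes and for keeping the silent chromatin of chromosome ends from spreading inward.

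The *swr1Δ* arrays had been deposited at a lower overall level, with medians of 9.29 to 9.30 against 9.71 to 9.75 on the wild-type arrays, and were brought to a common distribution by rank before any comparison, after which their medians were 9.74. The median standard deviation between cultures was 0.079 in wild type and 0.067 in *swr1Δ*. As a scale for weak signals, 95% of the 1746 probe sets designed for another yeast lay under 3.76 on the wild-type arrays and under 3.85 on the *swr1Δ* arrays. Of the 4 auxotrophic markers, *URA3* stood at 2.91 and 2.90 and *MET17*, the gene also called *MET15*, at 3.18 and 3.39 in wild type and *swr1Δ*, under those limits. *LEU2* stood above them, at 4.18 and 4.92, and was called higher in *swr1Δ* (limma, adjusted p = 3.6e-04), and *HIS3* stood at 11.16 and 11.20. None of 8 **a**-specific mating genes passed the test.

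The deleted gene was read first. *SWR1* signal was 9.18, 9.02 and 9.23 in the wild-type cultures and 2.80, 2.94 and 3.49 in the mutant cultures, so that every mutant value lay at the level of the probe sets for the other yeast. The fitted difference was -6.07 ± 0.17 (SE, n = 3 and 3). Of the 5 genes on each side of *SWR1* along chromosome IV, *PEX3*, which encodes a peroxisome assembly protein, fell by 0.51 (limma, adjusted p = 4.0e-06) and *MRX8* by 0.34 (3.1e-04), while *GPI8* rose by 0.41 (0.019) and *RQC1* by 0.16 (0.049). The call for *RQC1* was lost on leaving out any 1 of the 6 arrays, with differences of 0.14 to 0.17, and that of *GPI8* without the wild-type culture 1 (0.32) or the *swr1Δ* culture 1 (0.38) or 3 (0.39). *MSN5* differed by 0.14 (adjusted p = 0.26), and the remaining 5 did not pass either.

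The transcript of the histone variant itself rose on these arrays. In its work with tagged H2A.Z, the study described the *HTZ1* mRNA in *swr1Δ* as unaffected, without showing the data. *HTZ1* read 10.30, 10.13 and 10.14 in wild type and 11.23, 11.17 and 11.17 in *swr1Δ*, a rise of 1.00 ± 0.08 (adjusted p = 4.7e-08) that stopped just short of the 2-fold limit. Among the 14 genes for SWR1 subunits, 3 rose, 3 including *SWR1* fell and 8 did not pass, near the 14.2% and 18.4% of all probe sets that rose and fell. *SWC7*, a small subunit, went from 4.63, 4.93 and 5.15 to 6.39, 6.54 and 6.55, a 3.02-fold rise. *ARP6*, an actin-related subunit, fell by 0.82 ± 0.06 from 9.14 to 8.32, with no overlap between the groups. The bromodomain genes moved in opposite directions: *BDF1*, whose protein belongs to SWR1 and to the general transcription factor TFIID, rose by 0.70 ± 0.06, whereas its paralogue *BDF2* fell from 10.61, 10.45 and 10.61 to 9.24, 9.19 and 9.35, a difference of -1.30 ± 0.11 (adjusted p = 9.5e-08). The changes of *RVB1* (0.13) and *SWC3* (-0.22) were small, and leaving out 1 array at a time gave 0.10 to 0.15 and -0.25 to -0.18, with the calls lost for most of the arrays.

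Across the 5498 probe sets, 45 (0.818%) were higher and 109 (1.98%) were lower in *swr1Δ* by more than 2-fold at an adjusted p under 0.05. The 109 include *SWR1* and represent 107 genes. In all 154 probe sets the 3 mutant values lay on one side of the 3 wild-type values, which was also true of 24.9% (higher) and 31.7% (lower) of all probe sets. Without a limit on size, 778 (14.2%) rose and 1009 (18.4%) fell, around a median difference of -0.02 over all probe sets. With the values used as deposited the split was 15 higher and 337 lower past 2-fold, and 115 higher and 4324 lower at any size.

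**Figure D1:**
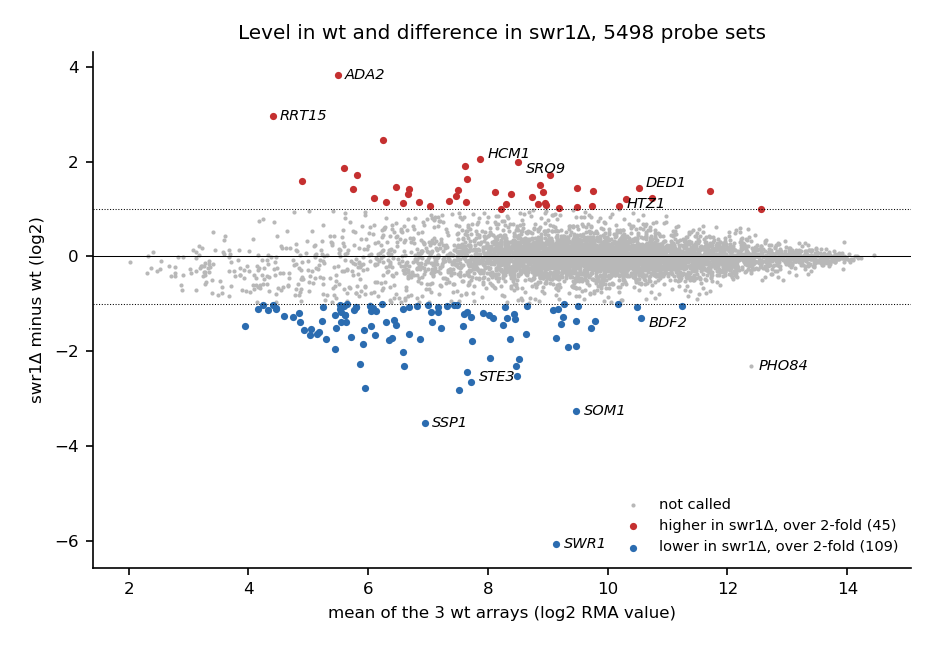
Difference between *swr1Δ* and wt (y axis, log2, mean of 3 arrays minus mean of 3 arrays) against the wild-type mean (x axis, log2 RMA value) for 5498 probe sets. Red points are the 45 higher and blue points the 109 lower by more than 2-fold. The blue points crowd at wild-type levels under 8, and *SWR1* lies alone at -6.07.

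The falls came largely from probe sets with a low mean signal. In the dimmest 25% of probe sets, by mean over the 24 arrays, lay 104 of the 109 falls and 20 of the 45 rises. This mean includes the mutant arrays, so a fall itself lowers it. *SWR1*, with a wild-type mean of 9.14, is counted in the dimmest 25%, whose upper limit was 8.62. The counts by level therefore do not describe the wild-type level alone. Of probe sets with such a mean between 4 and 6, 52 of 246 (21.1%) fell past 2-fold and 1 rose, whereas above a level of 10 only 2 of 2415 fell and 12 rose. All 109 that fell stood above the other-species limit in wild type, and 22 of them were no longer above it in *swr1Δ*, so that the fold changes of those 22 are read against the floor of the array.

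The largest rise was that of *ADA2*, which encodes an adaptor subunit of the SAGA and ADA histone acetyltransferases. It read 5.09, 5.90 and 5.49 in wild type and 9.39, 9.35 and 9.22 in *swr1Δ*, a 14.2-fold difference (3.82 ± 0.22, adjusted p = 2.7e-10). *RRT15*, an uncharacterised open reading frame from the list of genes around the ribosomal DNA, followed with means of 4.41 ± 0.64 (SD, n = 3) and 7.38 ± 0.06. The wild-type values of both genes were widely spread, but no mutant value came near them. Retrotransposon transcripts were represented by *YGR109W-A*, the Gag gene of a Ty3 element, with a rise of 2.46 ± 0.30, and by *YBL005W-A*, the Gag gene of a Ty1 element, with 1.52 ± 0.17, and both are read by probe sets that may also detect other copies. *AGP2*, for a plasma membrane regulator of polyamine and carnitine uptake, rose from 7.52, 7.64 and 7.71 to 9.85, 9.55 and 9.18, *OPT2*, for an oligopeptide transporter homologue, by 1.46 ± 0.25, and *PPQ1*, for a protein phosphatase, from 9.48, 9.48 and 9.53 to 10.90, 10.97 and 10.93.

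**Figure D2:**
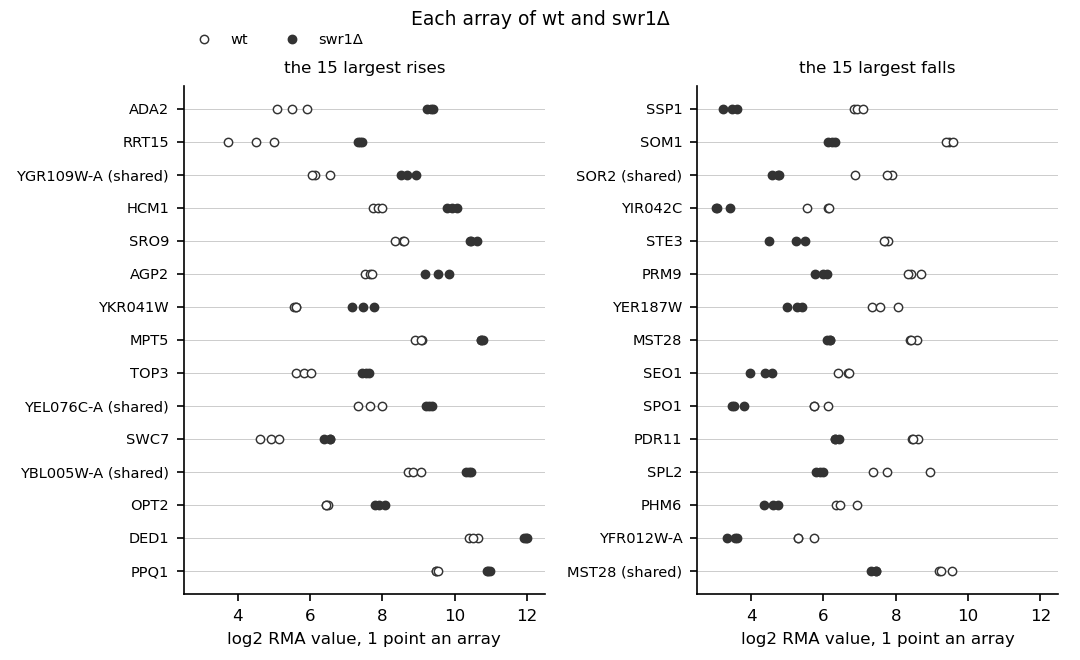
Log2 RMA values (x axis) of every wild-type array (open circles) and *swr1Δ* array (filled circles) for the 15 largest rises (left) and the 15 largest falls (right) past 2-fold, *SWR1* left out. Shared marks probe sets that may detect related sequences. In each of the 30 rows the 3 filled circles lie on one side of the 3 open circles.

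Several of the largest rises were in genes for RNA-binding proteins. *SRO9* and *SLF1* encode a pair of related RNA-binding proteins with a La motif. *SRO9* went from 8.35, 8.56 and 8.61 to 10.41, 10.61 and 10.46 (1.99 ± 0.09), and *SLF1* from 6.72, 6.57 and 6.75 to 8.08, 8.11 and 8.12 (1.42 ± 0.12). *MPT5*, for a Pumilio-family protein that represses mRNAs, rose by 1.72 ± 0.08, and *DED1*, for an RNA helicase of translation initiation, rose from a mean of 10.52 ± 0.12 (SD, n = 3) to 11.96 ± 0.05. In the list of 18 nuclear transport and RNA-binding factors 7 rose, 11 did not pass and none fell, against 14.2% higher and 18.4% lower of all probe sets. The 7 included *SRO9* and *SLF1*, so the count overlaps the genes named above. The export receptor *CRM1* (0.45) and the importin gene *KAP95* (0.49) were also among the 7, and the median of the list was 0.15.

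Some regulators of the early cell cycle were among the genes that rose. *HCM1*, which encodes a forkhead transcription factor of S phase, read 7.74, 7.88 and 8.00 in wild type and 10.07, 9.94 and 9.80 in the mutant, a 4.17-fold rise. *CDC6*, for the replication licensing ATPase, rose from 7.66, 7.17 and 7.68 to 9.01, 8.93 and 8.77, *SWI4*, for the DNA-binding subunit of the G1 factor SBF, rose by 1.15 ± 0.18, and *CLB6*, an S-phase cyclin gene, by 0.85 ± 0.21. Of 38 probe sets for cyclins and cell cycle regulators, 10 rose, 2 (*TOS8* and *YHP1*) fell and 26 did not pass, with a median of 0.13, against 14.2% and 18.4% of all probe sets that rose and fell. *TOP3*, for the topoisomerase that works with the Sgs1 helicase, rose from 5.60, 5.84 and 6.02 to 7.63, 7.44 and 7.53, and of the 48 DNA repair, recombination and checkpoint genes 5 were higher and 8 lower, near those shares (4 lower without the *swr1Δ* culture 1, 5 without the wild-type culture 2). Of the 12 genes for ribonucleotide reductase and damage-induced functions 6 rose and none fell (3 rose without the *swr1Δ* culture 2), where 14.2% of all probe sets rose. The largest rises were *HUG1* (0.84 ± 0.27, adjusted p = 0.025), *DIF1* (0.63) and *RNR1* (0.52), of which *HUG1* lost the call without the wild-type culture 3 (0.67) or the *swr1Δ* culture 1 (0.72) or 2 (0.82), and *RNR1* without the wild-type culture 2 (0.43).

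Of 38 genes for the respiratory chain and ATP synthase, 19 rose and *COR1* alone fell, with a median of 0.22, against 14.2% and 18.4% of all probe sets (13 to 17 rose when 1 array was left out, 13 without the *swr1Δ* culture 2 and 14 without the wild-type culture 1 or 2 or the *swr1Δ* culture 1). *COX9*, a cytochrome c oxidase subunit gene, rose from 10.64, 10.79 and 10.50 to 11.37, 11.28 and 11.30, and *NDI1* (0.65), for the NADH dehydrogenase, and *ATP2* (0.59) rose by similar amounts. The median of the list lay 0.25 above that of all probe sets, and 0.24 to 0.27 above it in the alternative scalings. *HAP4*, for the activator subunit of the Hap complex that governs respiratory genes, rose by 1.02 ± 0.20, whereas *CAT8*, for the activator of gluconeogenic genes, fell from 5.71, 5.58 and 5.84 to 4.34, 4.29 and 3.40.

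Among nutrient genes, 5 of 28 of sulfur assimilation rose and none fell, the rises being near the 14.2% of all probe sets. The largest were those of *MET13* (1.36 ± 0.25), for a methylenetetrahydrofolate reductase, and the sulfate permease gene *SUL2* (1.35 ± 0.46, adjusted p = 0.030), whose call was lost on leaving out any array but that of the wild-type culture 3 (differences of 1.22 to 1.42). The fit over the 6 arrays alone called 13 sulfur genes higher, and 3 were called without the wild-type culture 2 or the *swr1Δ* culture 1 or 2. Among 23 genes of nitrogen catabolism 4 rose, near the overall share, and 7 fell, against 18.4% of all probe sets. Of the 7 falls, 6 were among the 13 members in the dimmest 25%, where 29.7% of all 1375 probe sets fell. The list median was 0.04, and 0.22 for the 10 genes remaining with the dimmest 25% left out. The part of the signal level in the count was not tested. *CAR2*, for arginine breakdown, was up by 1.24 ± 0.36 (not called without the wild-type culture 3, 1.12). The amino acid permease gene *GAP1* was down by 1.01 ± 0.16. Of 7 galactose genes measured, *GAL10*, *GAL7* and *GAL3* fell by 1.08, 1.04 and 0.97, against 18.4% of all probe sets that fell. *GAL3* was not called without the *swr1Δ* culture 1 (-0.86). All 3 falls lay in the dimmest 25%, where 29.7% of all 1375 probe sets fell. The galactose median was -0.29, and -0.10 after quantile normalization of all arrays. It was 0.04 for the 2 genes remaining with the dimmest 25% left out. The part of the signal level in these falls was not tested. None of the 8 arginine and none of the 9 lysine synthesis genes passed the test.

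**Figure D3:**
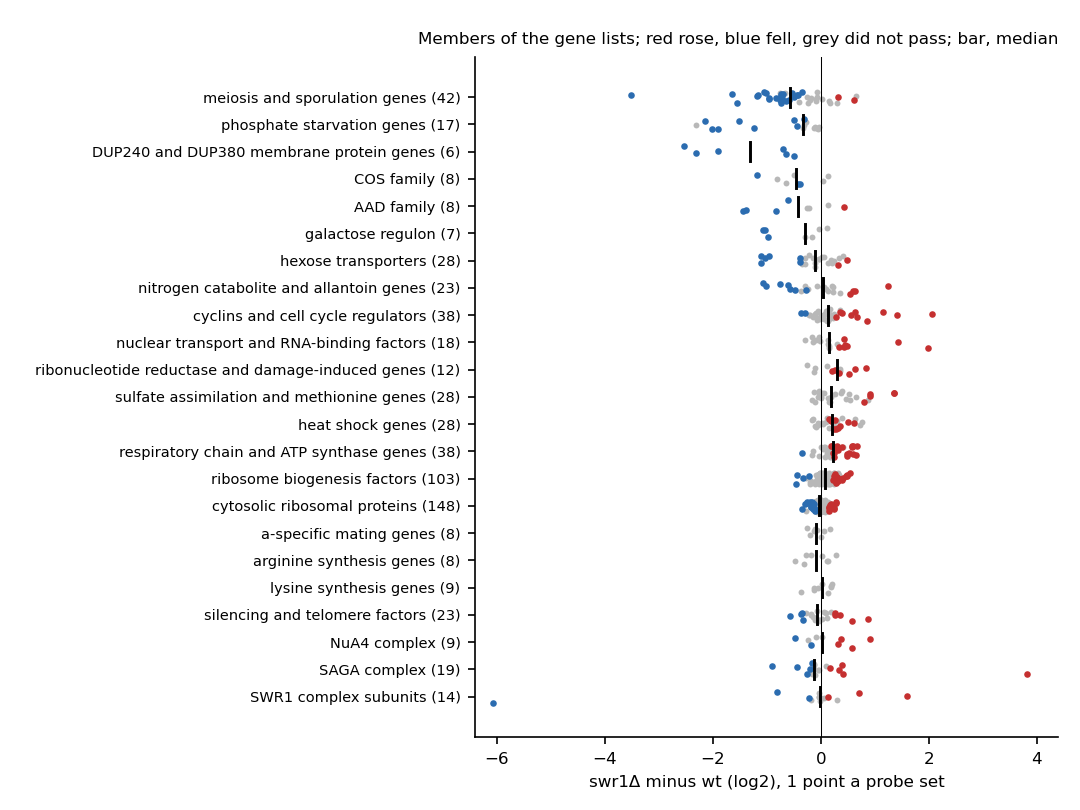
Difference between *swr1Δ* and wt (x axis, log2) for each probe set of 23 gene lists (y axis, with the number of probe sets). Red points rose, blue points fell and grey points did not pass an adjusted p of 0.05, and the black bar is the median of the list. The meiosis list has its median at -0.57 and the respiratory list at 0.22, and a lone point at 3.82 marks *ADA2* in the SAGA list.

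The largest fall after *SWR1* was that of *SSP1*, which encodes a coat protein of the membrane that encloses developing spores. It read 6.84, 6.92 and 7.10 in vegetative wild-type cells and 3.48, 3.23 and 3.61 in *swr1Δ*, an 11.4-fold difference down to the floor of the array. Of 42 meiosis and sporulation genes, 24 fell and 2 (*SMK1* and *SSP2*) rose, with a median of -0.57, against 18.4% of all probe sets that fell. The 7 past 2-fold were *SSP1*, *SPO20* and *DIT1* of spore formation, *AMA1*, an activator of the anaphase-promoting complex in meiosis (-1.64 ± 0.19), and *REC8*, *HOP1* and *SPO22*, which act on meiotic chromosomes. *REC8*, for the meiotic cohesin subunit, went from 5.60, 5.50 and 5.56 to 4.32, 4.20 and 4.63, and *SPO1*, another sporulation gene outside the list, from 5.74, 6.13 and 5.74 to 3.52, 3.79 and 3.47. The change was not general to meiotic genes, since *RIM4*, an RNA-binding regulator of meiosis outside the list, rose by 1.43 ± 0.17. Of the 42, 41 lay in the dimmest 25%, where 29.7% of all 1375 probe sets fell and the median was -0.12, and the part of the signal level in the count was not tested.

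*STE3*, the receptor for **a**-factor that is normally made by *MATα* cells, fell 6.27-fold in these *MATa* strains, from 7.71, 7.78 and 7.68 to 4.50, 5.25 and 5.49. The other α-specific genes did not follow it: *SAG1*, for the α-agglutinin, rose by 0.67 ± 0.15, *MF(ALPHA)2* rose by 0.53 and *MF(ALPHA)1* fell by 0.63. *SOM1*, for a subunit of the mitochondrial inner membrane peptidase, had the largest fall after *SWR1* among genes with a wild-type level above 9, from 9.46, 9.38 and 9.58 to 6.24, 6.11 and 6.33. *PDR11*, for a sterol uptake transporter, fell from 8.46, 8.61 and 8.48 to 6.31, 6.44 and 6.31. For *STE3*, *SOM1* and *PDR11* every mutant culture was more than 4-fold below every wild-type culture.

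Several genes induced by phosphate starvation fell. Of 17 measured, 8 fell, 9 did not pass and none rose, with a median of -0.33, where 18.4% of all probe sets fell. With the dimmest 25% left out, 3 of 10 fell and the median was -0.22. Over all 17, the median was -0.23 without the wild-type culture 1 and -0.45 without the wild-type culture 2. *SPL2*, for an inhibitor of low-affinity phosphate uptake, went from 8.96, 7.36 and 7.77 to 5.90, 5.79 and 5.98, *PHM6* from 6.92, 6.34 and 6.46 to 4.74, 4.61 and 4.35, and the acid phosphatase gene *PHO5* from 9.94, 9.13 and 9.35 to 7.57, 7.63 and 7.54. The first wild-type culture had the highest value for each of the 3 genes. The high-affinity transporter gene *PHO84* showed the same order, with 13.10, 11.83 and 12.26 in wild type and 9.95, 10.06 and 10.23 in *swr1Δ*, but did not pass (-2.32 ± 0.90, adjusted p = 0.055 in the fit over 24 arrays, 0.0016 in that over the 6 arrays). *PHO11* (-1.51) and *GIT1* (-1.23), the other members past 2-fold, lie at chromosome ends.

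Falls were concentrated at the ends of chromosomes. Among the 105 probe sets for the 5 outermost genes of the 32 ends, 28 (26.7%) fell past 2-fold, among the next 5 genes 17 of 142 did, and among genes 11 to 15 from an end 3 of 143 (2.10%), compared with 57 of 4810 (1.19%) for genes beyond position 25. In all, the 15 outermost genes held 48 of the 109 falls in 390 probe sets. Of the 109, 15 were on probe sets that may detect related sequences, and all of these lay among the 48. *AAD3* and *MST28* were each counted on more than a single probe set. At 29 of the 32 ends the median was below 0, where that of all probe sets was -0.02. Signals near the ends were also weaker, with a median level, again by mean over the 24 arrays, of 8.01 for the 15 outermost genes and 9.79 for the others. The falls themselves lower this mean, here and in the splits by level that follow. Between 4 and 6 on the log2 scale 33.8% of end probe sets fell past 2-fold against 16.3% of the others, between 6 and 8 17.2% against 3.50%, and above 8 it was 2.03% (4 of 197) against 0.183% (8 of 4373). Within these ranges the levels still differed, with medians of 7.05 and 7.36 between 6 and 8, and the part of the level in the falls at the ends was not tested. With the dimmest 25% left out, 1 of 176 end probe sets and 4 of 3945 others fell past 2-fold.

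**Figure D4:**
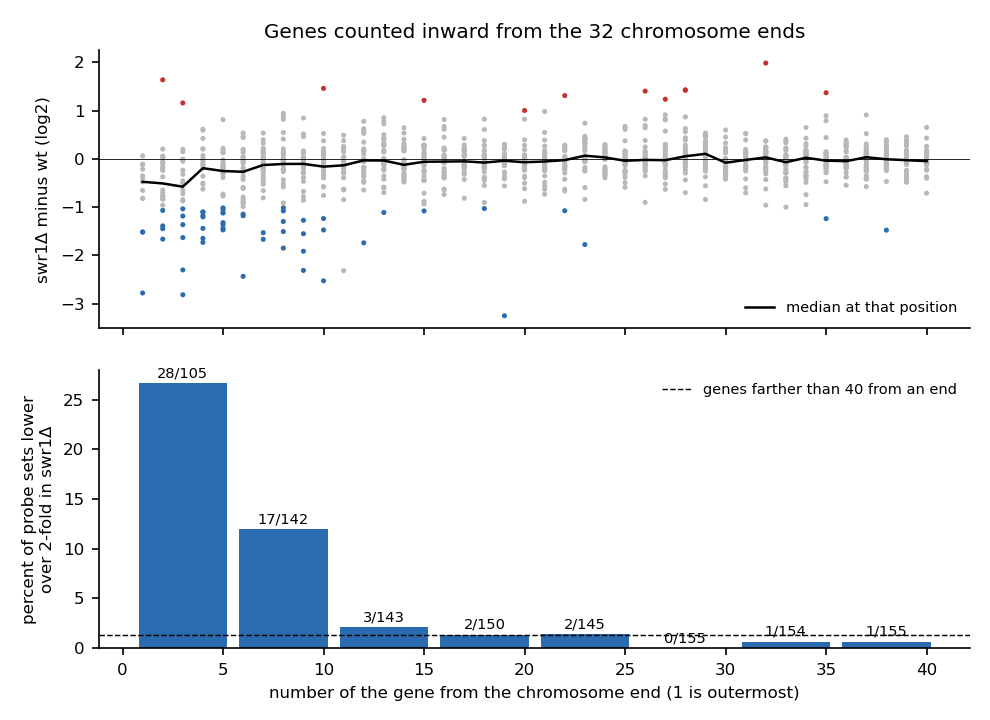
Top, difference between *swr1Δ* and wt (log2) by the gene's number from its chromosome end, with falls past 2-fold in blue, rises past 2-fold in red and the median at each position as a line. Bottom, percent of probe sets that fell past 2-fold in bins of 5 genes, with the counts above the bars. The share goes from 26.7% in the outermost bin to 2.10% in the bin of genes 11 to 15.

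The falls at the ends were uneven: 19 of the 32 ends held at least 1 and 9 held 3 or more. At the right end of chromosome III *AAD3* (-1.39, and -1.45 on a probe set that may detect relatives), *PAU3*, *YCR101C*, *YCR099C* and *GIT1* fell past 2-fold. A further probe set of *AAD3* that may detect relatives read -0.84. The right end of chromosome I held *PHO11*, *YAR064W*, *MST28* and *PRM9*, of which *PRM9*, from the DUP240 family of membrane proteins, went from 8.42, 8.69 and 8.34 to 5.99, 6.10 and 5.78. The DUP240 and DUP380 list, chosen as a gene family, fell in all 6 of its probe sets, with a median of -1.31, against 18.4% of all probe sets that fell. The 3 past 2-fold were those of *PRM9* and *MST28*, already counted at this end, so the list is not separate from the count by position. Without the wild-type culture 2 or the *swr1Δ* culture 3, 4 of the 6 were called. At the left end of chromosome IV *SOR2*, for a sorbitol dehydrogenase homologue, fell from 7.91, 7.75 and 6.87 to 4.75, 4.76 and 4.58 on a shared probe set. The maltose permease homologue *MPH2* at that end fell by 1.66 (0.82 on a shared probe set). *YIR042C*, the outermost gene of the right end of chromosome IX, fell from 5.56, 6.13 and 6.16 to 3.04, 3.06 and 3.41. The left end of chromosome V went the other way at its tip, where *YEL076C-A* and *YEL076C* rose by 1.64 ± 0.20 and 1.16 ± 0.22 on probe sets that may detect related genes. Of the 107 genes that fell, 27 lay next to another gene that fell, and 4 of the 45 that rose lay next to another that rose. The first group is larger and gathered at the ends, and no expected number was computed, so the counts are not compared.

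Other chromatin and silencing lists held changes in both directions, against 14.2% higher and 18.4% lower of all probe sets. Among 19 SAGA genes 5 rose and 5 fell (3 fell without the wild-type culture 1 or the *swr1Δ* culture 1), and next to *ADA2* the largest change was a fall of 0.90 ± 0.14 in *SUS1*, for a subunit shared with the mRNA export machinery. Of 9 NuA4 acetyltransferase genes 4 rose, including the scaffold genes *EAF1* (0.92 ± 0.08) and *EPL1* (0.58 ± 0.09), and 2 fell, including *YNG2* (-0.48 ± 0.07). In the list of 23 silencing and telomere factors *RIF1*, for a telomere length regulator, rose by 0.87 ± 0.09 and *SIR4*, for a structural component of silent chromatin, fell by 0.58 ± 0.05, within totals, near the overall shares, of 5 higher (3 without the wild-type culture 1 or 3 or the *swr1Δ* culture 3) and 4 lower (2 without the *swr1Δ* culture 2). Of 9 probe sets for core and linker histones 2 were higher (*HTB2* by 0.40 and *HHO1* by 0.28) and 1 was lower, but 7 were higher after median centring of the arrays. Of 148 probe sets for cytosolic ribosomal proteins 9 rose and 17 fell, but 97 rose and none fell after the same centring, so that no direction is given for them.

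The changes were then set against the other strains by direct tests within the same fit. By more than 2-fold, 90 probe sets (1.64%) were higher and 74 (1.35%) were lower in *swr1Δ* than in *htz1Δ*. Against *swc2Δ* the numbers were 13 (0.236%) and 35 (0.637%), and against *swc5Δ* 50 (0.909%) and 23 (0.418%), whereas against the double mutant *htz1Δswr1Δ* 1 probe set was higher, *HTZ1*, and 1 was lower, the uncharacterised frame *YBR090C* (3.58 against 4.89), each 0.0182% of those tested. At any size, 39 (0.709%) were higher and 20 (0.364%) lower in *swr1Δ* than in the double mutant. Genes deleted in a single strain of a comparison, such as *SWR1* against *htz1Δ*, differ by design and were not left out of these counts.

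For the genes called between *swr1Δ* and wild type, the direct tests read as follows. The genes were chosen for their values on the same *swr1Δ* arrays that enter these tests, so the counts are a description and an excess in the direction of the choice is built in. Of the 45 that rose, 23 were higher in *swr1Δ* than in *htz1Δ* at any size and 4 were lower (21.2% and 21.6% of all probe sets), 27 and 1 in the comparison with *swc2Δ* (9.69% and 12.9%), 26 and 1 with *swc5Δ* (10% and 11.7%), and 0 and 0 with *htz1Δswr1Δ*. Of the 108 that fell, *SWR1* left out, 24 were lower and 11 were higher in *swr1Δ* than in *htz1Δ*, with 21.6% and 21.2% over all probe sets. The corresponding counts were 33 and 1 against *swc2Δ*, 22 and 4 against *swc5Δ*, and 2 and 0 against *htz1Δswr1Δ*, for which 0.364% of all probe sets were lower. *ADA2* stood at 9.32 in *swr1Δ* and 9.28 in the double mutant, and at 8.58, 8.41 and 8.54 in *htz1Δ*, *swc2Δ* and *swc5Δ*, against 5.50 in wild type. *SSP1* was near the floor in all of these mutants, at 3.44 in *swr1Δ* and 3.24 to 3.97 in the other 4.

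A group of 16 called genes differed from all of *htz1Δ*, *swc2Δ* and *swc5Δ* by more than 1.5-fold in the direction of its change, 7 of them higher and 9 lower, and it was picked after the values had been seen. Over all 5498 probe sets 24 were higher and 30 lower by the same rule. *DED1* belonged to it, with 11.96 in *swr1Δ* and 12.02 in the double mutant but 10.94, 10.91 and 10.87 in *htz1Δ*, *swc2Δ* and *swc5Δ*. *BDF2* was the strongest signal among the lower ones, with 9.26 in *swr1Δ* and 9.73 in *htz1Δswr1Δ*, against 10.56 in wild type and 10.74, 10.90 and 10.80 in *htz1Δ*, *swc2Δ* and *swc5Δ*. *SWC7* showed steps, from 4.90 in wild type and 4.88 in *htz1Δ* through 5.70 in *swc2Δ* and 5.79 in *swc5Δ* to 6.49 in *swr1Δ* and 6.37 in the double mutant. Also in the group were *CPD1*, for a cyclic nucleotide phosphodiesterase, and *YER188C-A*, an uncharacterised frame near an end of chromosome V. They stood at 7.70 and 5.02 in *swr1Δ* and 7.70 and 5.22 in *htz1Δswr1Δ*. In *htz1Δ*, *swc2Δ* and *swc5Δ* they stood at 6.41 to 6.92 and 6.17 to 6.95, with an SD of 0.68 for *YER188C-A* in *swc5Δ*. The double mutants *htz1Δswc2Δ* and *htz1Δswc5Δ* were not compared. The *swc2Δ* and *swc5Δ* arrays had, like those of *swr1Δ*, been deposited at their own levels, and strain and array level cannot be told apart.

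**Figure D5:**
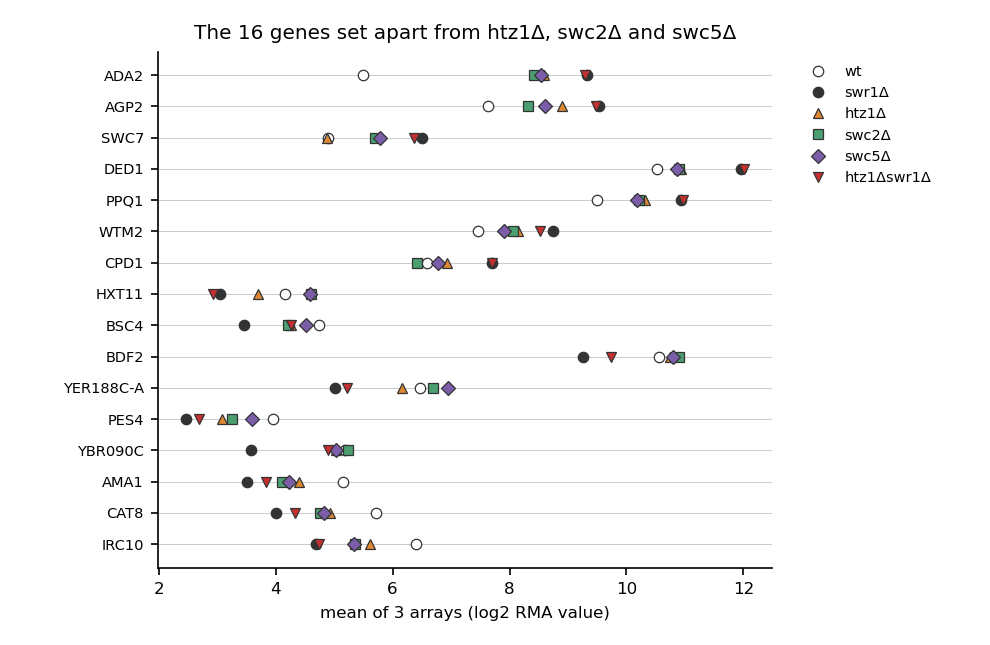
Mean of 3 arrays (x axis, log2 RMA value) in wt, *swr1Δ*, *htz1Δ*, *swc2Δ*, *swc5Δ* and *htz1Δswr1Δ* for the 16 genes that differed in *swr1Δ* from *htz1Δ*, *swc2Δ* and *swc5Δ* by more than 1.5-fold. For *DED1* the values of *swr1Δ* (11.96) and *htz1Δswr1Δ* (12.02) lie together, above those of the other 3 mutants.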

How the data were processed

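Biotin-labelled cRNA from 1 µg of total RNA was hybridised to 1 array per culture. The authors converted scans to log2 values with the robust multi-array average (RMA) method, which corrects background, normalizes and summarises probes, and deposited them as log2 values, while the submitters' processing notes also name GCOS and limma, without versions. Which arrays were normalized together is not given in the sources used here. From the deposited log2 values, the 9 arrays of *swr1Δ*, *swc2Δ* and *swc5Δ*, which lay at levels of their own, were mapped by rank over all 10928 probe sets to the mean distribution of the other 15, which removes any change common to all genes. The 24 arrays were fitted with limma 3.58.1 in R 4.3.3, with 1 mean per strain (16 residual degrees of freedom), and p-values were adjusted by the Benjamini-Hochberg method over the 5498 probe sets paired with a single gene through the array annotation. Gene order came from the RefSeq annotation of the assembly R64. A call needed an adjusted p under 0.05 and, where stated, more than 2-fold. Errors are standard errors of the fit or standard deviations of 3 arrays. The labels describe the replicates as biologically independent. The number of arrays limits the precision. The script was tested on simulated data.

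Named genes were *SWR1* with its neighbours, *HTZ1* and SWR1 subunits, the 15 largest rises and the 15 largest falls past 2-fold without overlap, up to 4 members per gene list with the largest passing changes, and outermost genes that fell past 2-fold. Other genes, such as *PHO84*, *BDF2*, *HAP4*, *CAT8*, *CPD1*, *RIM4*, *YBR090C* and list members beyond 4, were named after their values were seen. Genes, lists and comparisons were chosen with earlier results of these data known. Alternatives changed the scaling, the arrays fitted, the filter, the variance prior and the replicate block, and left out single arrays.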

Additional observations from a re-analysis of the deposited data

Results flagged for a closer look

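Probe sets without a single paired gene were left out of the comparisons, and some of them differed. Of 3684, 23 were higher and 15 lower in *swr1Δ* than in wild type by more than 2-fold, and 17 of these 38 belong to 1 run of 30 neighbouring control probe sets. In that run the *swr1Δ* values did not follow the wild-type values of the same row (r = 0.487 over the 30 rows, largest difference 11.5 log2 units) but those of the next row (r = 0.989, median difference 0.10). In the other 6 mutants the same-row correlation over the run was 0.880 to 0.998. None of the 5498 probe sets analysed lies in the run: in 1072 stretches of 30 rows that hold any of them, the same-row correlation between *swr1Δ* and wild type was never below 0.957 and never below that with the next row. These correlations run across probe sets, which are not replicates.

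Outside the run, 9 higher control probe sets detect ribosomal RNA or a spiked-in dap transcript. Whether the rise of *RRT15* belongs with the ribosomal RNA signal was not tested. The difference between the 3′ and 5′ dap probe sets was 2.64 ± 0.10 (SD, n = 3) in wild type and 1.80 ± 0.08 in *swr1Δ*, whereas for actin it was 0.22 and 0.11 and for the TATA-binding protein 1.79 and 1.83. The part of this in the results was not tested. A reporter probe set rose from 3.42 to 13.6 and stood at 13.6 to 13.9 in all 7 deletion strains, which carry *kanMX4*. Among the 1746 probe sets for the other yeast, 1 was higher past 2-fold, at 2.79 in wild type and 4.01 in *swr1Δ*, and none was lower.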

How the results depend on the processing

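With the values as deposited, where the median of all probe sets was -0.44, 15 were higher and 337 lower past 2-fold, and 115 and 4324 at any size. The differing probe sets then numbered 385 against *htz1Δ*, 1004 against *swc2Δ* and 517 against *swc5Δ* (main values, 90 and 74, 13 and 35, and 50 and 23), and the falls were 90 among the 15 outermost genes and 247 among the others. Named genes that changed sign there, and under no other alternative, were *GPI8* (-0.032), *HHO1* (-0.10), *MSN5* (-0.30), *RQC1* (-0.29) and *RVB1* (-0.24). With the dimmest 25% left out, 25 were higher and 5 lower past 2-fold and 598 lower at any size, with 66, 13 and 21 differing from *htz1Δ*, *swc2Δ* and *swc5Δ*, and 1 fall at the ends and 4 elsewhere. This setting tests fewer probe sets, and a fall can itself place a probe set among those left out. Testing all probe sets gave 69 rises, and a 1.5-fold limit 176 rises and 289 falls.

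Leaving out 1 array gave 44 to 52 rises and 100 to 117 falls past 2-fold, and 572 to 912 and 801 to 1187 at any size, the highest without the *swc5Δ* culture 1. The falls at the ends ranged from 43 to 50 and elsewhere from 55 to 67, and the numbers differing from *htz1Δ*, *swc2Δ* and *swc5Δ* from 149 to 186, 31 to 61 and 62 to 106, with 31 and 61 without the *swc2Δ* culture 1 and 2. Correlations of wild-type and *swr1Δ* deviations were 0.23, 0.20 and 0.08 for same-numbered cultures and -0.31 to 0.13 for differently numbered ones. These values do not settle whether the replicate numbers pair the samples. A fit with the replicate number as a block called 45 and 110 past 2-fold and 864 and 1086 at any size. The main fit called 45 and 109, and 778 and 1009. Of 1293 values of 84 named probe sets under the alternatives, 1237 kept direction and side of the threshold, 46 fell short of it, 5 passed it newly (all *PHO84*) and 5 changed sign. Probe sets near the floor of the array have only a lower limit on their fold change.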
